A study of Mus musculus with 4 samples.

Results

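Metallothioneins and a small group of zinc response genes were followed in mouse embryonic stem cells before and after exposure to all-trans retinoic acid (ATRA), a vitamin A derivative that activates nuclear receptors. The 6 genes were taken by symbol from count tables of 23420 genes: the metallothioneins Mt1, Mt2 and Mt3, the metal-sensing transcription factor Mtf1, the zinc exporter Slc30a1 and the zinc importer Slc39a10. They were selected on their measured read counts in the ATRA and 0 h libraries, with the difference already known, so their differences between the groups are given as a description. Where the fit of all genes called members, this is counted once beside the share of all genes called, and it is no test of them. At 24 h with ATRA, Mt1 and Mt2 transcripts stood at a small part of their 0 h level in both libraries, while Mtf1 lay slightly lower and the levels of both transporters overlapped between the groups.

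The cells were wild type E14 embryonic stem cells, a mouse line held in the undifferentiated state by leukemia inhibitory factor (LIF). Per the labels' protocols they grew without feeder cells on gelatin, in a medium with serum and 2-mercaptoethanol, and total RNA was sequenced. The control group held 2 libraries sampled at 0 h, and the ATRA group 2 libraries sampled after 24 h with 1 µM ATRA. A treatment label on the ATRA libraries writes the dose as millimolar, while the titles and the protocol give micromolar, which was followed. Dimethyl sulfoxide is named as the vehicle, but not whether the 0 h cells received it, so ATRA, vehicle and 24 h of further culture cannot be told apart. Nothing in the labels says that the replicates are separate cultures, so p-values measure the spread between these libraries only, which may be technical.

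The control libraries held 31005634 (replicate 1) and 21484812 (replicate 2) gene counts, the ATRA libraries 13337972 (replicate 1) and 11086233 (replicate 2). Values are CPM, a gene's counts relative to the library size after scaling by TMM factors, with no GC correction unless stated, and 3 counts stood for 0.094 to 0.309 CPM. Known retinoid targets rose in the edgeR fit: Cyp26a1, which degrades retinoic acid, by 4.94 and Rarb, a retinoic acid receptor, by 7.80 on the log2 scale, ATRA over control. Between these groups the log2 fold change followed transcript GC content (Spearman's rho −0.745 across 14146 genes). ATRA replicate 2 stood above ATRA replicate 1 by a median of 0.85 on the log2 scale in the tenth of genes with the lowest GC content and differed by −1.31 in the tenth with the highest, against −0.01 and −0.31 for control replicate 2 over control replicate 1. Each difference is therefore given from the uncorrected fit and again from a fit with a GC correction, which removes any difference between libraries that follows GC content, including one that the treatment itself caused. Of the stem cell markers, 3 of 9 fell in the uncorrected edgeR fit, where 1.13% of all tested genes were called, and 6 of 9 in the GC-corrected one, where 16.2% were. In RNA from whole cultures, fewer cells of a type and less RNA per cell cannot be told apart.

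Metallothioneins are small, cysteine-rich proteins that bind zinc and copper. When free zinc in a cell rises, the zinc finger factor MTF1 binds metal response elements, short motifs with the core letters TGCACNC or TGCGCNC, and switches on Mt1, Mt2 and the exporter gene Slc30a1, and it is known to repress the importer gene Slc39a10. Mt1 and Mt2 are expressed in most tissues, Mt3 mainly in brain and Mt4 in stratified epithelia. Transcription of Mt1 and Mt2 also responds to glucocorticoids and to oxidative stress.

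The 4 mouse metallothionein genes lie on the forward strand of chromosome 8 within 43.1 kb, in the order Mt4, Mt3, Mt2, Mt1, with 5.51 kb between the end of Mt2 and the start of Mt1 (GENCODE M21, GRCm38). Mt1 spans chr8:94179082-94180327, Mt2 chr8:94172664-94173568 and Mt3 chr8:94152607-94154146. Mtf1 spans chr4:124802104-124849800 on the forward strand, Slc30a1 chr1:191906767-191913247 on the forward strand and Slc39a10 chr1:46807544-46892852 on the reverse strand. All 6 are annotated as protein-coding.

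The RefSeq promoter windows of Mt1, Mt2 and Slc30a1 (GRCm38.p6, 250 bases before to 50 bases after the RefSeq start) are printed because these genes are the known targets of MTF1 and their windows held several core matches. They run 5′ to 3′ on the gene's strand, and the capitals mark each match of 7 bases to TGCACNC or TGCGCNC on either strand.
Mt1, chr8:94178839-94179138, + strand: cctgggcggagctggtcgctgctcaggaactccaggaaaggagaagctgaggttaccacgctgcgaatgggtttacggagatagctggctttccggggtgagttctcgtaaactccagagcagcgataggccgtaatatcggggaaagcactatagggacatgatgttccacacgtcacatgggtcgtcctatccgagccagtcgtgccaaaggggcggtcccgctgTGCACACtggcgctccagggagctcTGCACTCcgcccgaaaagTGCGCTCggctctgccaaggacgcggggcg
Mt2, chr8:94172368-94172667, + strand: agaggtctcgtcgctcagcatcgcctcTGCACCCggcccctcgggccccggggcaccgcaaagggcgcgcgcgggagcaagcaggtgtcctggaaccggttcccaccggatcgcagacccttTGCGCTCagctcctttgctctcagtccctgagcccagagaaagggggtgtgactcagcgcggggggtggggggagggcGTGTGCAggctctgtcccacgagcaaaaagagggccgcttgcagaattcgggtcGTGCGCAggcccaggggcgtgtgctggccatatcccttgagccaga
Slc30a1, chr1:191906531-191906830, + strand: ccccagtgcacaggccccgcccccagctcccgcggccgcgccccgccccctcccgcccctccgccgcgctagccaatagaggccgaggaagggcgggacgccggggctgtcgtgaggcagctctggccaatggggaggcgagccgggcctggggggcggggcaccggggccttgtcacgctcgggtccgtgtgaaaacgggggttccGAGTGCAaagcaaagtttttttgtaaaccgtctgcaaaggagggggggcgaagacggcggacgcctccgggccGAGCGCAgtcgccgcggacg

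Counting the RefSeq start as position 1 and the base before it as −1, the 3 matches of Mt1 began at −23, 3 and 21, all reading forward. The 4 matches of Mt2 began at −223 and −128, reading forward, and at −50 and 5, where the printed strand shows the reverse complement. Both matches of Slc30a1, at −43 and 31, were reverse complements. Among all 32851 RefSeq promoter windows of mouse, 7.11% held 2 or more matches, 1.97% held 3 or more and 0.517% held 4 or more. These windows were rich in G and C, at 60.7%, 67.7% and 73% against a median of 52.7% over all windows. With TGCGCNC alone, Mt1 had 1 match, Mt2 had 2 and Slc30a1 had 1, and 15.4% of all windows had at least 1.

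Mt3 and Mt4 had 1 match each, and 25.7% of all windows had at least 1. The windows of Mtf1 and of both RefSeq starts of Slc39a10 had 0, which says only that these letters are not in those windows. The choice of start limits what a window shows. Of the 3 protein-coding GENCODE transcripts of Mt1, 1 starts inside the printed window, and the others start 122 and 152 bases after the RefSeq start, outside it. A second Mt2 transcript starts 242 bases after the RefSeq start, and no GENCODE start of Slc39a10 lies in either of its windows. A match describes the letters and does not show that a factor binds there.

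Mt1 had 3180 and 1364 counts in control replicates 1 and 2, and 119 and 34 counts in ATRA replicates 1 and 2. These are 99.7, 60.8, 8.41 and 3.51 CPM, or 80.2 ± 27.5 CPM in controls and 5.96 ± 3.47 CPM with ATRA (SD, n = 2 each). The lowest control library was above the highest ATRA library several times over. The fitted log2 fold change was −3.73 (SE 0.53), 13.2-fold lower, and −3.26 (SE 0.35), 9.61-fold lower, after GC correction.

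Mt2, which encodes the closely related second metallothionein, had 5936, 2658, 262 and 66 counts in the same order of libraries. These are 186 and 118 CPM in the controls and 18.5 and 6.81 CPM with ATRA, or 152 ± 47.9 against 12.7 ± 8.28 CPM (SD, n = 2 each). As for Mt1, both control libraries were high, both ATRA libraries were low, and ATRA replicate 2 was the lowest of all. The log2 fold change was −3.57 (SE 0.55), 11.9-fold lower, and −2.56 (SE 0.25), 5.89-fold lower, with GC correction. Ordered from the most negative of 14256 tested genes, Mt1 stood at place 64 and Mt2 at place 81, and at places 56 and 106 after the correction.

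**Figure D1:**
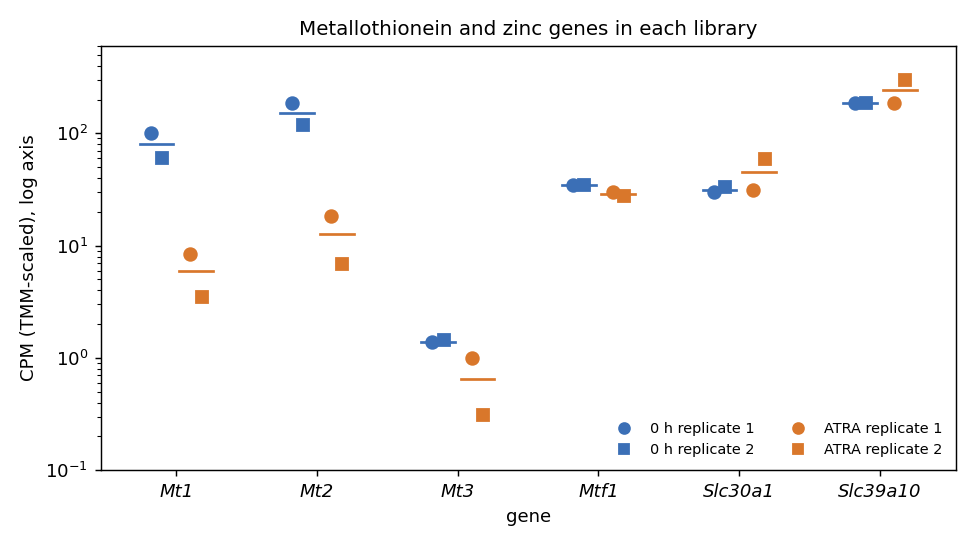
Level of each member in each library, in CPM on log axes, with blue for 0 h, orange for 24 h ATRA, circles for replicate 1, squares for replicate 2 and a line at each group's mean. Mt1 and Mt2 are lower in both ATRA libraries than in both controls, while the libraries of Slc30a1 and Slc39a10 overlap between the groups.

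The size of the Mt1 and Mt2 differences moved with single libraries. Without ATRA replicate 1 the uncorrected log2 fold changes were −4.54 for Mt1 and −4.50 for Mt2, and without ATRA replicate 2 they were −3.25 and −3.03. The GC content assigned to Mt1 also mattered. Its longest transcript has 52.9% GC and its APPRIS principal transcript, the annotation's choice of main isoform, 58.1%. With the principal transcripts the GC-corrected value of Mt1 was −2.25, while that of Mt2, whose longest and principal transcripts are the same (55.6%), was −2.57.

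All 6 members passed the filter on low counts. In the uncorrected edgeR fit, 1 of 6, Mt1, was called lower at an adjusted p under 0.05, and 0 higher, where 1.13% of all tested genes were called (0.723% higher and 0.407% lower). In the GC-corrected fit 2 of 6, Mt1 and Mt2, were called lower, where 16.2% of all tested genes were called (8.53% higher and 7.7% lower). Since this contrast chose the genes, nothing is read from these counts. They also moved with the libraries: without ATRA replicate 1, 4 of 6 were called, among 10289 of 14917 genes, and without any of the other libraries in turn 2 of 6. In the GC-corrected fits that left out a library, Mt1 was not called, and Mt2 was called only without control replicate 2, where it was the 1 member called. The members called there were 0 without control replicate 1, Mtf1 and Slc39a10 without ATRA replicate 1, and Slc39a10 without ATRA replicate 2. Over all genes, 35, 25, 6690 and 4947 were called without control replicate 1, control replicate 2, ATRA replicate 1 and ATRA replicate 2.

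**Figure D2:**
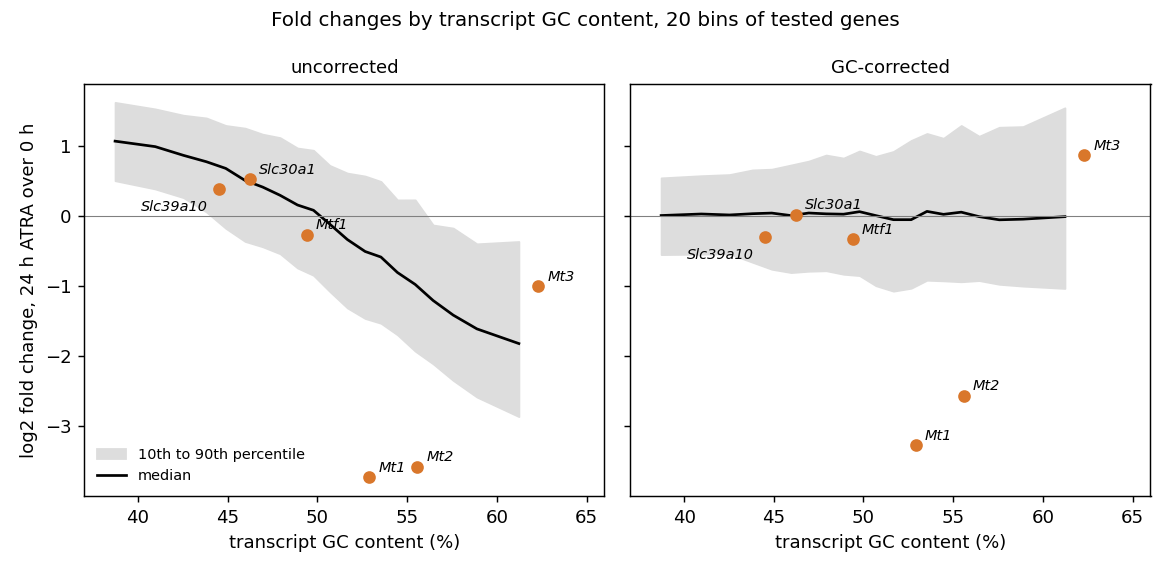
Log2 fold change, ATRA over control, against transcript GC content in percent, with lines for the median and the 10th and 90th percentiles of 20 groups of genes ordered by GC content and a point for each member, uncorrected on the left and GC-corrected on the right. The median of all genes runs from positive to negative as GC content increases on the left and is flat on the right, and Mt1 and Mt2 lie far below the 10th percentile in both.

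In counts without GC correction, Mt1 and Mt2 kept nearly the same proportion to each other. With GC correction their log2 fold changes were −3.26 and −2.56, and by principal transcripts −2.25 and −2.57. On that scale the proportion thus depended on the transcript whose GC content was used. Mt1 made up 34.9% of the summed Mt1 and Mt2 counts in control replicate 1 (Wilson 95% interval 33.9 to 35.9) and 33.9% in control replicate 2 (32.5 to 35.4). In ATRA replicates 1 and 2 it made up 31.2% (26.8 to 36.1) and 34% (25.5 to 43.7). The intervals cover counting error only, and the ATRA ones rest on 381 and 100 counts. The summed level of both genes was 286 and 179 CPM in the controls against 26.9 and 10.3 CPM with ATRA, so it differed by far more between the groups than the share of Mt1 did. Mt1 and Mt2 are paralogs, and how reads that match both were counted is not stated, so the share is uncertain. Mt2 also shares 432 exonic bases with the antisense gene Gm45774, which has no entry of that name in the count tables.

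Mt1 and Mt2 also differed between the control libraries. The same control counts took part in the choice of genes, and this comparison was picked out after its values were seen. The shares of genes given with it are therefore a description and no test. Control replicate 1 was above control replicate 2 by 0.71 on the log2 scale for Mt1 (1.64-fold) and by 0.65 for Mt2 (1.57-fold). Among 10827 genes with a mean of at least 5 CPM the median absolute difference between the controls was 0.10, and 102 genes (0.942%) differed by as much as Mt1 and 144 (1.33%) by as much as Mt2. After GC correction the differences were 0.70 and 0.56, matched by 0.416% and 1.07% of genes. Mtf1, Slc30a1 and Slc39a10 lay close to each other in the controls, with differences of 0.01, −0.14 and −0.02. Mt3, at only 44 and 32 counts there, differed by −0.04, and by −0.5 after GC correction, opposite in sign to Mt1 and Mt2.

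The ATRA libraries differed more widely in general, with a median absolute difference of 0.64. There, ATRA replicate 1 was above replicate 2 by 1.24 for Mt1 and 1.43 for Mt2, a difference that 14.6% and 9.63% of genes matched. After GC correction these were 0.71 and 0.42, against a median of 0.24. Summed markers of fibroblasts, which serve as feeder cells in other cultures, were 217 and 156 CPM in control replicates 1 and 2 and 110 and 111 CPM in the ATRA libraries, with 0 of 8 markers at 0 in every library. Col1a1, a collagen gene, carried most of that sum in the controls, at 141 and 91.9 CPM. With ATRA it was at 40.1 and 24.1 CPM, below Col1a2 at 44.1 and 51.3 CPM. Of the 7 tested markers, 2, Dcn and Pdgfra, rose in the GC-corrected edgeR fit and 0 fell, where 16.2% of all genes were called. In the uncorrected edgeR fit 0 were called, where 1.13% of all tested genes were called. An unadjusted p under 0.05 was reached by 4 of the 7, and by 5941 of all 14256 tested genes. DESeq2 called 2 higher and 2 lower, where it called 4268 of 18882 genes. Col1a1 and Col1a2 were singled out after their values were seen. The part of these markers in the metallothionein difference was not tested. The summed stem cell markers, 3677 and 3678 CPM, were nearly equal in the controls.

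**Figure D3:**
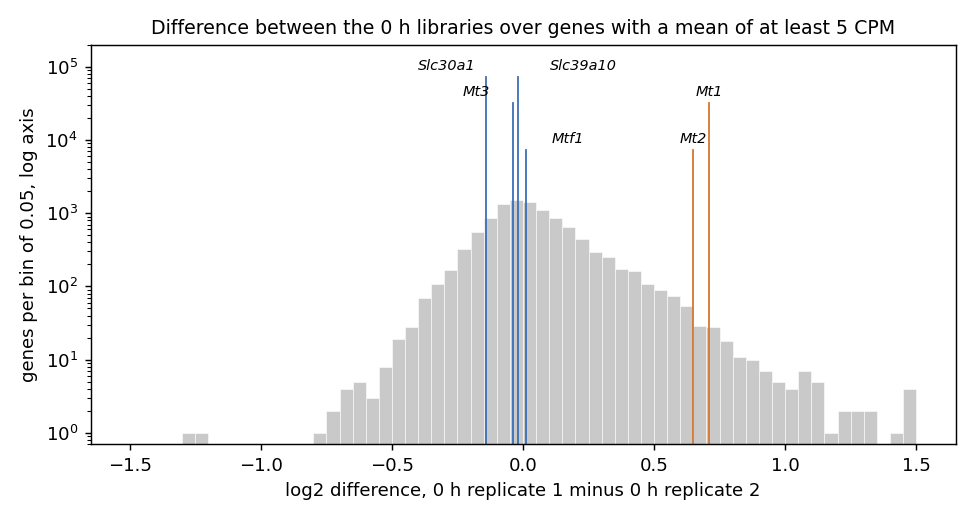
Number of genes (log axis) by log2 difference between control replicate 1 and control replicate 2, for genes with a mean of at least 5 CPM, with values beyond the axis put in the outermost bars and orange lines at Mt1 and Mt2. Mt1 at 0.71 and Mt2 at 0.65 lie in the right tail, which few genes reach.

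Mt3, the metallothionein best known from brain, was near the lower end of what these libraries resolve. It had 44 and 32 counts in the controls and 14 and 3 with ATRA, or 1.38, 1.43, 0.99 and 0.309 CPM. Both controls were above both ATRA libraries, but the value of ATRA replicate 2 equals that of 3 counts. The log2 fold change was −1.01 (SE 0.56), and with GC correction, for a transcript of 62.3% GC, it took the opposite sign at 0.86 (SE 0.45). Mt4 had 8, 4, 8 and 1 counts, overlapped between the groups and did not pass the filter.

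Mtf1, the factor that reads zinc and drives the metallothionein genes, was present at 35 and 34.6 CPM in the controls and 29.8 and 27.8 CPM with ATRA. The libraries did not overlap, and the means were 34.8 ± 0.241 and 28.8 ± 1.4 CPM (SD, n = 2 each). Its log2 fold change was −0.27 (SE 0.28) and −0.34 (SE 0.13) after GC correction, a difference of 1.21-fold and 1.26-fold. Mtf1 shares 721 exonic bases with 1110065P20Rik on the opposite strand, which had 228, 147, 43 and 1 counts against 1115, 777, 422 and 270 for Mtf1. Whether the counting used strand is not given in the sources used here. Reads in the shared bases could therefore belong to either gene.

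Slc30a1 encodes ZnT1, the exporter that moves zinc out of the cell across the plasma membrane. It was measured at 30 and 33.2 CPM in the controls and at 31.4 and 59.4 CPM with ATRA, so ATRA replicate 1 lay between the controls and ATRA replicate 2 stood apart. The log2 fold change was 0.52 (SE 0.38), and 0.02 (SE 0.21) after GC correction. Without ATRA replicate 2 it was 0.01 uncorrected, and without ATRA replicate 1 it was 0.90. An antisense gene, 1700034H15Rik, shares 468 exonic bases with Slc30a1 and had 57, 54, 15 and 12 counts, against 958, 745, 444 and 576 for Slc30a1.

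Slc39a10 encodes ZIP10, an importer that brings zinc into the cell. Its levels were 185 and 188 CPM in the controls and 187 and 300 CPM with ATRA, again with ATRA replicate 1 at the control level and ATRA replicate 2 above it. The log2 fold change was 0.38 (SE 0.32) uncorrected and −0.30 (SE 0.10) after GC correction, a change of sign for a transcript of 44.5% GC. The GC-corrected libraries did not overlap between the groups, the uncorrected ones did. The sign of Slc30a1 therefore depended on the scale and the ATRA library and that of Slc39a10 on the scale. Mt1, Mt2 and Mtf1 were each negative in 18 of 18 alternative settings. These settings refit the same libraries that chose the genes, so their signs are a description and no test.

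Levels of different genes were compared as CPM per kilobase of the longest protein-coding transcript, with no GC correction. In the controls Mt2 came first at 298 ± 93.6, then Mt1 at 73.9 ± 25.4, Slc39a10 at 33.9 ± 0.376, Slc30a1 at 6.03 ± 0.425, Mtf1 at 4.56 ± 0.0316 and Mt3 at 2.62 ± 0.0609 (SD, n = 2 each). No neighbours in this order overlapped between libraries. With ATRA the order began with Slc39a10 at 44.3 ± 14.5, followed by Mt2 at 24.8 ± 16.2, Slc30a1 at 8.66 ± 3.78, Mt1 at 5.49 ± 3.2, Mtf1 at 3.78 ± 0.184 and Mt3 at 1.21 ± 0.897. There the libraries of Slc39a10 and Mt2 overlapped, as did those of Slc30a1 and Mt1 and of Mt1 and Mtf1. With GC correction the log2 fold change went from 0.38 to −0.30 for Slc39a10 and from −3.57 to −2.56 for Mt2. It went from 0.52 to 0.02 for Slc30a1 and from −3.73 to −3.26 for Mt1. The order with ATRA was not computed on that scale and need not hold there. For Mt1 the length used matters: over its principal transcript of 549 bases, in place of 1085, its level was 146 ± 50.1 in the controls and 10.9 ± 6.32 with ATRA, still below Mt2 in each library. With that length its mean with ATRA was above that of Slc30a1, which reverses their order, and their libraries overlapped.

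The other zinc transporter genes served as a family taken whole: 9 exporters of the Slc30 family and 13 importers of the Slc39 family, of which 8 and 10 passed the count filter. In the uncorrected edgeR fit 0 of these 18 were called, where 1.13% of all genes were called. An unadjusted p under 0.05 was reached by 8 of the 18, and by 5941 of all 14256 tested genes. DESeq2, which tested 20, called 6, of which 2 were higher and 4 lower, where it called 4268 of 18882 genes. The median log2 fold change was 0.59 for the exporters and −0.66 for the importers, against −0.02 for all tested genes. After GC correction these medians were 0.11 and 0.12, against 0.01, so the gap between exporters and importers was not present on that scale, and the mean of the importers was −0.02. Without ATRA replicate 1, 14 transporters were called and without ATRA replicate 2, 11, each of 19 tested, while 10289 and 7302 of all genes were.

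In the GC-corrected edgeR fit, 4 of the 18 transporters were called, where 16.2% of all genes were. The exporter Slc30a4 rose by 0.68 on the GC-corrected log2 scale (SE 0.14, adjusted p = 0.0369), with 13.3 and 14.3 CPM in the controls and 31 and 54.8 CPM with ATRA. Slc30a9, the exporter gene with the highest mean CPM over the 4 libraries, not per length, rose by 0.45 (SE 0.10, adjusted p = 0.0462), from 75.7 and 76.9 CPM to 129 and 208 CPM, and in the controls Slc30a5 was higher at 83.3 and 84.1 CPM. The importer Slc39a8, which also carries manganese, fell by 1.06 (SE 0.15, adjusted p = 0.0188), from 24 and 24.9 CPM to 14.1 and 18.9 CPM. Slc39a4, the importer best known for zinc uptake in the intestine, fell by 0.91 (SE 0.21, adjusted p = 0.0446), from 18.7 and 18.4 CPM to 5.02 and 2.78 CPM. For these 4 genes the control and ATRA libraries did not overlap.

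The uncorrected fold changes of these genes had the same signs, at 1.63, 1.15, −0.57 and −2.23 for Slc30a4, Slc30a9, Slc39a8 and Slc39a4. Slc39a14, the importer gene with the highest mean CPM over the 4 libraries, stood at 107 and 107 CPM in the controls and 156 and 134 CPM with ATRA and was called in neither edgeR fit. In the controls Slc39a7 was higher, at 185 and 163 CPM. Slc30a8, the zinc transporter of insulin granules, and Slc39a12 had 0 counts in all 4 libraries. The GC-corrected count of transporters fell without either control library and rose without either ATRA library, as did the count over all genes.

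**Figure D4:**
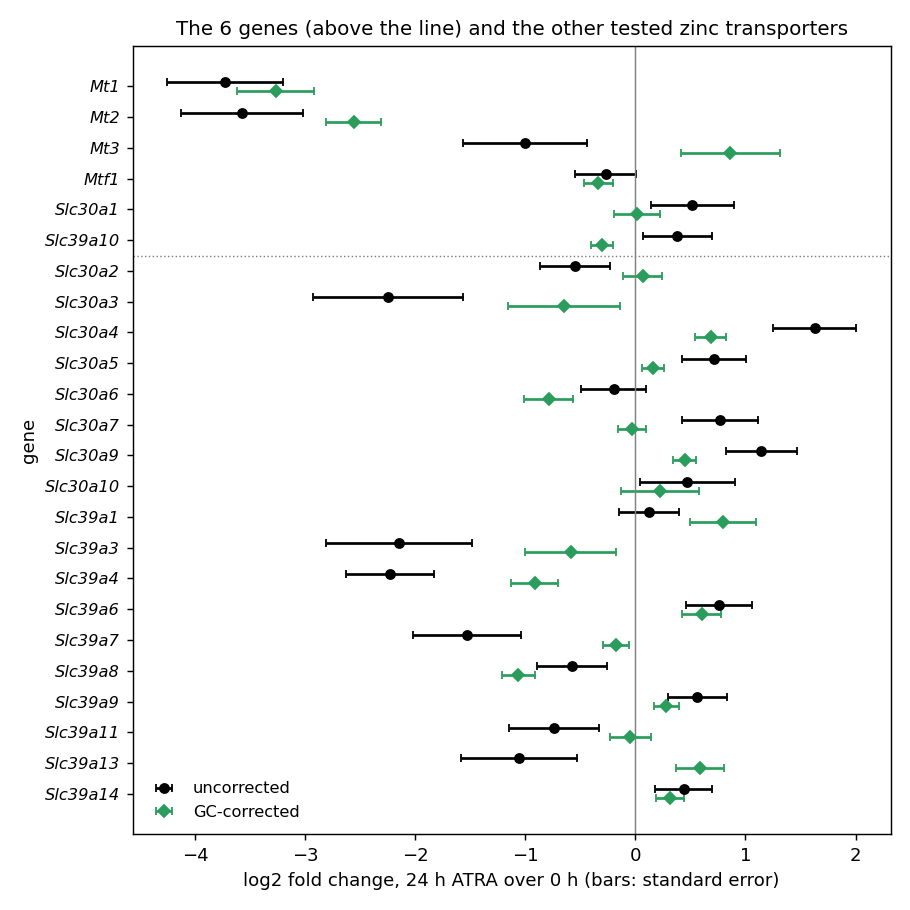
Log2 fold change, ATRA over control, of the 6 members (above the dotted line) and the 18 tested zinc transporter genes, with bars of 1 SE, in black uncorrected and in green GC-corrected. Mt1 and Mt2 lie farther from 0 than the transporters on both scales, and the corrected values of most transporters lie nearer to 0.

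Of 11 other genes reported to respond to metals or to MTF1, 0 were called in the uncorrected edgeR fit, with 5 at an unadjusted p under 0.05 and 5 called by DESeq2. Those fits called 1.13% of all tested genes and 4268 of 18882 genes. Uncorrected, 5941 of all 14256 tested genes had an unadjusted p under 0.05. In the GC-corrected fit, where 16.2% of all genes were called, 4 were: Csrp1, a LIM domain protein, rose by 0.81 (adjusted p = 0.0176), and Hmox1, Ndrg1 and Ftl1 fell. Without GC correction the log2 fold change of Csrp1 was −0.09. Its libraries overlapped, at 130 and 124 CPM in the controls and 147 and 92.2 CPM with ATRA. Hmox1, the heme-degrading heme oxygenase, fell by 1.04 (adjusted p = 0.0348), with 168 and 179 CPM in the controls and 80.6 and 35.5 CPM with ATRA. Ndrg1 fell by 1.67 (adjusted p = 0.0154) and Ftl1, the ferritin light chain, by 1.06 (adjusted p = 0.0163). The list's GC-corrected median was 0.07 and its mean −0.16, and the uncorrected median was −0.54. The GC-corrected count of this list fell without either control library and rose without either ATRA library, as did the count over all genes.

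Among 8 glucocorticoid response genes, 1 fell in the uncorrected edgeR fit: Sgk1, a kinase induced by glucocorticoids, at 351 and 352 CPM in the controls and 91.3 and 101 CPM with ATRA (log2 fold change −1.87, SE 0.26, adjusted p = 0.043). In the GC-corrected fit 3 fell: Sgk1 by 2.04 (adjusted p = 0.00192), the transcription factor Klf9 by 1.10 (adjusted p = 0.0203) and the receptor co-chaperone Fkbp5 by 0.52 (adjusted p = 0.0309). Among all tested genes 1.13% were called in the uncorrected fit and 16.2% in the GC-corrected one. The median of the list was −0.65, and −0.29 after correction. Unlike Mt1 and Mt2, Sgk1 was level between the control libraries. In the uncorrected fit, 0 of 8 were called without control replicate 1 or without control replicate 2, and 6 and 7 without ATRA replicate 1 or 2. Over all genes these fits called 125, 662, 10289 and 7302. The corrected count of this list fell without either control library, as did the corrected count over all genes.

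The values of Mt1 and Mt2 were set beside the genes around them on chromosome 8, in a window of 150 kb on each side that was chosen after values were seen. Nup93, a nuclear pore component that follows Mt1, was at 347 and 372 CPM in the controls and 351 and 317 CPM with ATRA (log2 fold change −0.11, and −0.26 GC-corrected). On the other side, Bbs2, Ogfod1 and Nudt21 had log2 fold changes of −0.41, −0.04 and 0.58, and of −0.39, −0.39 and −0.29 after GC correction. None of these 4 named neighbours passed the test in either edgeR fit. Slc12a3 had 2, 5, 5 and 0 counts and was not tested.

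Likeness of a gene's pattern was measured as the Euclidean distance between log2 CPM profiles over the 4 libraries, each centred on its mean, among 10826 other genes with a mean of at least 5 CPM. The gene most like Mt1 was Mt2, at a distance of 0.176, followed by N4bp3 at 0.238 and Pwwp2b at 0.277, where the median over all genes was 3.97. For Mt2 the order was Pwwp2b at 0.149, Mt1 at 0.176 and Rfx2 at 0.22, with a median of 3.9. On the GC-corrected scale Mt1 was nearest to Cbs, Tdh and Zfp296, with Mt2 in place 6, and Mt2 was nearest to Sppl2b, Tfeb and Gm16982, with Mt1 in place 48. The genes named on the 2 scales thus differed, and all these profiles share the same 4 libraries and their depth.

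For Slc30a1 and Slc39a10 the median distance over all genes was 0.953 and 0.866, well below that for Mt1 and Mt2. Slc30a1 was nearest to Polr3g, Cacybp and Clvs2, at 0.0497, 0.063 and 0.0633, and Slc39a10 to Atf1, Pbdc1 and Lsm5, at 0.00851, 0.0243 and 0.0369. After GC correction other genes took these places, Arl3, Sult6b1 and Oasl2 for Slc30a1 and Plag1, Cdkn2aipnl and Slc25a28 for Slc39a10. Markers of other cells were summed too. Those of extraembryonic endoderm were at 25.5 and 25.9 CPM in the controls and 52.9 and 79.9 CPM with ATRA, with 1 of 9, Ttr, at 0 in every library. Sox17, Afp, Ttr and Apoa1 did not pass the count filter. Of the 5 tested, 0 were called in the uncorrected edgeR fit, where 1.13% of all tested genes were. With GC correction 4 were called, all higher, where 16.2% of all tested genes were called. Dab2 carried most of the endoderm sum, at 21.7 and 22.3 CPM in the controls and 42.3 and 66.4 CPM with ATRA. Summed markers of neural cells were 163, 142, 102 and 141 CPM, a sum that Tubb3, a neuronal tubulin gene, led in the controls at 113 and 95.9 CPM. In the uncorrected edgeR fit Tubb3 fell, and the progenitor factor gene Sox1 and the neuronal gene Dcx rose, 3 of 6 tested. With GC correction 3 were called higher and 2 lower. Among all tested genes 1.13% were called uncorrected and 16.2% with GC correction. Summed markers of astrocytes were 37, 32.8, 20.1 and 22.3 CPM, of which Slc1a3 alone made up 31.4, 27, 15.5 and 20.9 CPM. Of the 3 tested astrocyte markers, 0 were called uncorrected and 1, Slc1a3, was called lower with GC correction, beside the same shares of all genes. None of the 7 neural and 5 astrocyte markers was at 0 in all libraries, but some were nearly absent. In the same order of libraries, Neurog2 had 0, 0, 2 and 1 counts, Aqp4 0, 0, 0 and 1, and S100b 1, 0, 0 and 0. The part of these cell types in the metallothionein and transporter values was not tested.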

How the data were processed

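Total RNA was sequenced in 4 libraries, 2 per group. For each library the authors deposited raw read counts by gene symbol. Build mm10, HTSeq 0.6.0, TopHat2 2.0.7, Cuffdiff 2.0.2 and Cufflinks 2.0.2 stand in the submitters' processing notes, with no role. The annotation and the strand setting were not given in the sources used here. Each table ended in 5 summary lines, which were left out. Reads in no gene made up 63.4% to 66.2%.

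Counts were fitted with edgeR 4.0.16 (R 4.3.3): default filter by group, TMM factors, robust quasi-likelihood test, Benjamini-Hochberg adjustment over all 14256 tested genes and a threshold of 0.05. edgeR's bias-adjusted form was taken over its older form after both had been run. The older form called 86 genes and not Mt1. SE is the fold change divided by the root of F. For the GC correction, each library's deviation from a gene's mean log2 CPM was fitted against transcript GC content (robust spline, 5 degrees of freedom, MASS 7.3.60.0.1) and entered as offsets. DESeq2 1.42.0 was an alternative. Code was tested on simulated counts.

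Symbols were matched to GENCODE M21: 21777 directly, 1278 by a synonym, and 365 not. The members and gene lists were chosen with earlier results of these data known. Named were the members, Mt4, called genes of each list (at most 5), or its most abundant gene where none was called, the 3 genes most like Mt1, Mt2, Slc30a1 and Slc39a10, and 2 retinoid targets. Replicates differed by more than sampling noise (chi-square per degree of freedom 10.1 and 82.4), so each library was counted. Some genes of the window around Mt1 are not reported here.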

Additional observations from a re-analysis of the deposited data

How the results depend on the processing

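Over all genes, 161 were called, 103 of them higher. The count was 2313 with GC correction, 2187 with GC correction by principal transcripts, 86 with edgeR's older method, 84 with a minimum of 5 CPM in 2 libraries and 25 with library totals only. It was 603 with RLE factors, of which 232 were higher and 371 lower, against 103 and 58 with TMM. DESeq2 called 4268. The replicate numbers were given by the labels with no word on pairing. Same-numbered libraries were not taken as pairs for that reason. Their deviations had a correlation of 0.272 (−0.0846 GC-corrected), which does not decide whether they were paired. With the replicate number as a block, 4401 genes were called, and 2628 with block and GC correction. Leaving out each library in turn gave 125 to 10289 calls, and 25, 35, 4947 or 6690 with GC correction. In these fits the lone library of a group is assumed to vary like the others.

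Of the other zinc transporters 0 were called. This became 4 with GC correction (either transcript choice), 1 with RLE factors, 6 with DESeq2, 6 with the replicate block and 3 with block and GC correction. Leaving out each library gave 0 to 14, and 0 to 7 with GC correction. The cause of these shifts was not tested.

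The signs of the members are a description, since the alternatives refit the same libraries that chose the genes. Mt1 and Mt2 were negative in 18 of 18 alternatives, at −4.54 to −2.25 and −4.50 to −2.27. Mt1, called without GC correction, was called in 11 of 18 alternatives. It was not with edgeR's older method, library totals only, the minimum of 5 CPM or any of the 4 GC-corrected fits that left out a library. Mt2, not called without GC correction, was called in 12 of 18, the replicate block among them. Mtf1 was negative in 18 of 18, Mt3 in 10 of 17, Slc30a1 in 4 of 18 and Slc39a10 in 7 of 18. Depth limits Mt3 and Mt4 most, with at most 44 counts in a library.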

Other observations

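Other stress and metal pathways were counted as lists, some of which share genes (Hmox1, Gclc, Fth1 and Ftl1 each stand in 2 lists). Of 11 copper handling genes, 0 were called in the uncorrected edgeR fit, with 4 at an unadjusted p under 0.05 and 3 called by DESeq2. Among all tested genes 1.13% were called uncorrected, 16.2% with GC correction and 4268 of 18882 by DESeq2. Uncorrected, 5941 of all 14256 tested genes had an unadjusted p under 0.05. In the GC-corrected fit, the copper pump gene Atp7a rose by 0.74 (adjusted p = 0.0317), with 33.4 and 33.5 CPM in the controls and 65.5 and 114 CPM with ATRA. Sco2, which helps deliver copper to cytochrome c oxidase, rose by 1.26 (adjusted p = 0.0357), and Commd1 fell by 0.87 (adjusted p = 0.0367). Without GC correction the log2 fold change of Sco2 was −0.33. Its libraries overlapped, at 8.65 and 9.93 CPM in the controls and 10.7 and 3.82 CPM with ATRA. Sod1, the copper and zinc superoxide dismutase and the most abundant of the list, had a log2 fold change of −0.73 and of −0.19 after correction.

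Of 14 NRF2 and glutathione genes, 0 were called in the uncorrected edgeR fit, with 4 at an unadjusted p under 0.05 and 2 called by DESeq2. The shares of all genes were again 1.13% uncorrected, 16.2% with GC correction and 4268 of 18882 by DESeq2. At an unadjusted p under 0.05 there were again 5941 of 14256 genes uncorrected. After GC correction Srxn1, a sulfiredoxin, rose by 0.95 (adjusted p = 0.0337). Gpx1, a glutathione peroxidase, fell by 1.03 (adjusted p = 0.0205), Txn1, thioredoxin, fell by 0.44 (adjusted p = 0.0434) and Hmox1 fell as given above. Prdx1, the most abundant of the list, had log2 fold changes of 0.77 and −0.09.

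For the heat shock and iron lists, too, the shares of all genes were 1.13% uncorrected, 16.2% with GC correction and 4268 of 18882 by DESeq2. At an unadjusted p under 0.05 there were 5941 of 14256 genes uncorrected and 5447 with GC correction. Of 9 heat shock genes, 0 were called in either edgeR fit, with 2 at an unadjusted p under 0.05 in each, and DESeq2 called 3. Hsp90aa1, the most abundant of them, had log2 fold changes of 0.71 and −0.07. Of 7 tested iron handling genes, 0 were called uncorrected, with 2 at an unadjusted p under 0.05 and 2 called by DESeq2, and 1, Ftl1, fell after GC correction. Tfrc, the transferrin receptor, had log2 fold changes of 0.85 and −0.18. In the uncorrected fits without ATRA replicate 1, 9 copper, 9 NRF2, 6 heat shock and 7 iron genes were called, and without ATRA replicate 2, 6, 8, 4 and 3. Over all genes these fits called 10289 of 14917 and 7302 of 14937. With GC correction the list counts were 6, 10, 3 and 3, and 3, 7, 3 and 2, and 6690 and 4947 over all genes. With either control library left out, few of all genes were called after GC correction, so nothing about these lists is read from those fits.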
